A study of Mus musculus with 17 samples.

Results

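The 6 noncoding RNAs described here, *Six3os1*, *Otx2os1*, *Dlx6os1*, *Emx2os*, *Sox2ot*, and *D130058E05Rik*, are transcribed beside or across the genes of forebrain patterning factors. Each was found by its gene symbol among the 26556 Ensembl genes counted in every library, all 6 had a row, and each was read together with its coding neighbor, *Six3*, *Otx2*, *Dlx6* and *Dlx5*, *Emx2*, *Sox2*, or *Gbx2*. The list was drawn up with the levels in these same libraries known. Levels and fold changes between cortex and thalamus or between nuclei are therefore a description of the 6 RNAs and their 7 neighbors, with no test, and nothing is read from how many of them differ.

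The libraries came from astrocytes of *Gfap::GFP* mice of the FVB strain at postnatal day 7 (P7), in which the *Gfap* promoter drives green fluorescent protein, so that fluorescent cells could be sorted by FACS. There were 17 libraries, each from 4 pooled brains. The somatosensory cortex (S1) gave 4, and the thalamus gave 13, of which 5 were from the dorsal lateral geniculate nucleus (dLG), 4 from the ventral posteromedial nucleus (VPM), and 4 from the ventral division of the medial geniculate nucleus (MGv). The replicates bear the letters a to e, and the labels name no treatment in any group. A sort for *Gfap*-driven fluorescence can keep other cells that carry the reporter or stick to labeled cells, and p-values over these libraries measure the spread between pools.

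Patterning factors are mostly homeobox and Sox proteins that divide the early forebrain into territories. *Six3* acts in the anterior forebrain and eye, *Otx2* in the forebrain and midbrain, *Emx2* in the dorsal telencephalon, *Dlx5* and *Dlx6* in the ventral telencephalon where cortical interneurons arise, *Gbx2* in the thalamus, and *Sox2* in neural progenitors and glia. Long noncoding RNAs often start close to such genes and run away from them or across them on the opposite strand. Among those described here, *Dlx6os1*, also called Evf2, includes a conserved enhancer between *Dlx5* and *Dlx6*, and *Sox2ot* carries *Sox2* inside one of its introns on the same strand.

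In the GENCODE annotation of the mouse genome (build GRCm38), *Six3os1* lies at chr17:85600651-85618398 on the minus strand, and *Six3* at chr17:85613608-85629302 on the plus strand, with their RefSeq starts pointing away from each other. *Otx2os1* (chr14:48668708-48870683, plus strand) starts within the span of *Otx2* (chr14:48657677-48673819, minus strand) and runs away from it. *Dlx6os1* (chr6:6820189-6871592, minus strand) runs across the whole of *Dlx6* (chr6:6863334-6868568, plus strand), and *Dlx5* (chr6:6877805-6882085, minus strand) lies upstream of it. *Emx2os* (chr19:59425104-59458635, minus strand) starts inside the first exon of *Emx2* (chr19:59458372-59465357, plus strand). *Sox2ot* spans 578350 bp (chr3:34104270-34682619, plus strand) around the single exon of *Sox2* (chr3:34650405-34652461, plus strand). *D130058E05Rik* (chr1:89930234-89933290, plus strand) runs across the start of *Gbx2* (chr1:89927956-89931179, minus strand).

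The sequences where these pairs meet are given here because counts can be shared where exons overlap. In exons, *Six3os1* shared 106 bp with *Six3*, *Otx2os1* 154 bp with *Otx2*, *Emx2os* 264 bp with *Emx2*, and *D130058E05Rik* 946 bp with *Gbx2*, which is 43.5% of the exonic length of *Gbx2*. *Dlx6os1* and *Sox2ot* shared no exonic base with *Dlx6*, *Dlx5*, or *Sox2*. Each stretch is 200 bases of a GENCODE transcript, 5′ to 3′, in lower case, and capitals mark the 30 bases at the edge that are also exonic in the coding neighbor on the other strand. The lower-case bases of *Emx2os* and *D130058E05Rik* lie directly upstream of the annotated start of *Emx2* and *Gbx2*. The first 200 bases of an *Otx2os1* transcript share none with *Otx2*.
D130058E05Rik, chr1:89931150-89931349, plus strand: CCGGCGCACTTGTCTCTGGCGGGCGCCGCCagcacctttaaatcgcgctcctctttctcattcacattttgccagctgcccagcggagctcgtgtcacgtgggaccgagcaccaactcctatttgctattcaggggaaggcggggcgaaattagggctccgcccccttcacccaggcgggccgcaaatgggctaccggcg
Emx2os, chr19:59458202-59458401, minus strand: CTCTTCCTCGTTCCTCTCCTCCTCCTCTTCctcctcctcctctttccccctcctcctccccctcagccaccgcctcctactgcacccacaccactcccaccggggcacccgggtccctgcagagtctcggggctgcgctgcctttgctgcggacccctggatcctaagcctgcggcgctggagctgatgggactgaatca
Six3os1, chr17:85613684-85613883, minus strand: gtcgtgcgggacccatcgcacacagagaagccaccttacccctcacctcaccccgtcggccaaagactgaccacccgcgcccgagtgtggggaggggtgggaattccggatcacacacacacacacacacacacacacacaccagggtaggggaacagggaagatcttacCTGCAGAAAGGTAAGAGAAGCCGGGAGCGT
Otx2os1, chr14:48668708-48668907, plus strand: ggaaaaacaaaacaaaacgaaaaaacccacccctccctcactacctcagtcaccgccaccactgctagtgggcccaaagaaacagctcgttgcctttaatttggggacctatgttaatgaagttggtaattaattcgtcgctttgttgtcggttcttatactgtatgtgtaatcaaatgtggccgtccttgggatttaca

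The kit behind these libraries does not keep the strand, and how reads on overlapping genes were assigned is not given in the sources used here. Reads from a gene and its antisense partner could thus not be told apart within shared exons, above all for *D130058E05Rik* and *Gbx2*.

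The RefSeq promoter table (GRCm38.p6, 250 bases before and 50 after a start) held windows for 2 of the 6 RNAs and 5 of the 7 neighbors. Windows are shown for both RNAs, *Six3os1*, which was higher in the thalamus, and *Dlx6os1*, which was higher in the cortex, together with the 250 bases before the start for *Six3* and for the most upstream *Otx2* start. Capitals mark TAATTA and TAATCC, core letters bound by many homeodomain proteins, searched on both strands. TAATTA was in 5.29% and TAATCC in 7.06% of all 32851 windows of 300 bases, and in 4.84% and 6.25% of their 250 bases before the start.
Six3os1, chr17:85618347-85618646, minus strand: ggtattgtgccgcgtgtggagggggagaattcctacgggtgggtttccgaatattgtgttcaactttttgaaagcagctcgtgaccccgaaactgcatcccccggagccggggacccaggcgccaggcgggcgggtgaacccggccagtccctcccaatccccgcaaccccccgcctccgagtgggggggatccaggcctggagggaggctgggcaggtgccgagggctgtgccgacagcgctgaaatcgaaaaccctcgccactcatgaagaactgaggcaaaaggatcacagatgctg
Six3, chr17:85620584-85620833, plus strand: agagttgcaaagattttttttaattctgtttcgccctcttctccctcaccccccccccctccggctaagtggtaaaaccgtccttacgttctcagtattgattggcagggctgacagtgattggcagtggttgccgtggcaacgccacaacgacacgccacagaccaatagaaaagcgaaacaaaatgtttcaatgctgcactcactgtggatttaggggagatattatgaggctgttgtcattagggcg
Dlx6os1, chr6:6869484-6869783, minus strand: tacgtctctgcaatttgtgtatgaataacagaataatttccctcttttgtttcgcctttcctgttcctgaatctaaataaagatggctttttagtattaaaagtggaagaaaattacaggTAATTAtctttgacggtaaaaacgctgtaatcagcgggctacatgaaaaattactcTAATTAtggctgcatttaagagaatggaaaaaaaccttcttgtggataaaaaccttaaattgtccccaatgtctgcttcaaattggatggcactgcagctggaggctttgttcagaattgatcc
Dlx6os1, chr6:6861634-6861933, minus strand: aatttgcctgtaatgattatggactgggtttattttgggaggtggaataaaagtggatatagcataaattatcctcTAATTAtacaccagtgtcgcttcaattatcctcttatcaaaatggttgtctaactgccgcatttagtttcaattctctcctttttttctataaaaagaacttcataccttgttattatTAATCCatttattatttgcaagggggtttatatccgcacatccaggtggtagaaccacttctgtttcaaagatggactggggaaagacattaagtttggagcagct
Otx2, chr14:48667645-48667894, minus strand: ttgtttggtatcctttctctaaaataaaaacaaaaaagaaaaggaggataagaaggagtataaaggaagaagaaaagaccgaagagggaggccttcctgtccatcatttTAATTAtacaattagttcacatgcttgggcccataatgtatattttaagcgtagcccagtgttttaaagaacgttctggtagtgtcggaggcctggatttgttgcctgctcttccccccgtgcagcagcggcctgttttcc

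The window at the *Dlx6os1* start between *Dlx6* and *Dlx5* held TAATTA 2 times, and the window at its other start held TAATTA and TAATCC once each. The *Otx2* stretch held TAATTA once, and neither motif was in the *Six3os1* window or in the *Six3* stretch. The G+C content was 63.0% in the *Six3os1* window and 35.7% and 35.3% in the *Dlx6os1* windows, against a median of 52.7% over all windows. A match to these letters is only a match, and binding was not measured.

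Depth was between 18213687 and 21519981 counts on genes in 16 libraries and 50366363 in cortex a. Levels are given as CPM (counts scaled to the library total) scaled by the trimmed mean of M values (TMM), and 3 counts, taken as the floor of detection, correspond to 0.0648 to 0.167 CPM. All 9 astrocyte markers were detected in every group, with summed levels of 12243 to 13268 CPM for cortical and 5771 to 14885 CPM for thalamic libraries. The members went both ways, with 1 toward the thalamus and 3 toward the cortex at an edgeR adjusted p under 0.1, as for 11.4% of all genes. *Gfap* had means of 495 CPM in the cortex, 534 CPM in the dLG, 12.3 CPM in the VPM, and 1864 CPM in the MGv. Its MGv libraries ranged from 36.1 to 5525 CPM. Summed levels of 10 neuronal markers were 1048 to 1295 CPM for cortical and 706 to 1938 CPM for thalamic libraries. Of the 10, 3 passed toward the thalamus and 1 toward the cortex. Cortical and thalamic means were 10.4 and 83.4 CPM for *Slc17a6*, and 37.2 and 13.1 CPM for *Slc17a7*. The 7 oligodendrocyte lineage markers reached 5633 to 10398 CPM over all libraries. What part these cells had in the levels of the 6 RNAs was not tested beyond a comparison with the neuronal markers. Fewer cells of a type and less RNA per cell cannot be told apart in such libraries. In VPM b, each of the 6 RNAs was at its highest among the 4 VPM libraries, and so were 55.0% of the 2425 long noncoding RNA genes tested between nuclei, against 13.5% to 17.2% in each other VPM library. VPM b also had the lowest neuronal marker sum of the VPM libraries, 819 CPM.

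**Figure D1:**
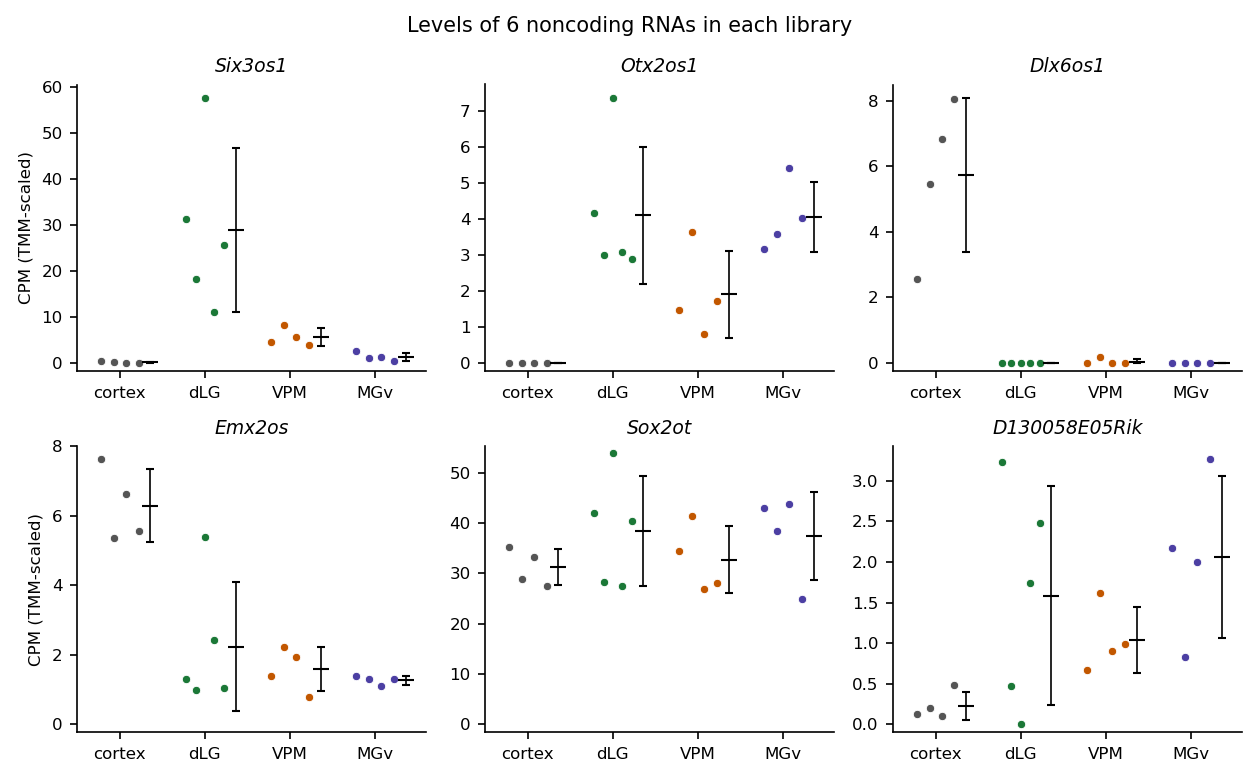
Level of each noncoding RNA (vertical axis, TMM-scaled CPM from 0, one scale per panel) in every library of the cortex, dLG, VPM, and MGv. Points are libraries from a to d or e, left to right, and the black dash with bars is the mean ± SD. *Six3os1* reached 57.7 CPM in dLG c and stayed at or below 0.346 CPM in cortical libraries, *Dlx6os1* reached 8.07 CPM in cortex d and stayed at or below 0.167 CPM in thalamic libraries, and the groups of *Sox2ot* overlapped.

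*Six3os1* was a thalamic RNA with a steep gradient between nuclei. The 5 dLG libraries had 31.4, 18.4, 57.7, 11.1, and 25.6 CPM, the 4 VPM libraries 4.59, 8.26, 5.66, and 3.85 CPM, and the 4 MGv libraries 2.55, 0.985, 1.24, and 0.453 CPM. In the cortex, there were 0.346, 0.148, 0, and 0 CPM. The groups did not overlap, and their order was dLG, VPM, MGv, and cortex, with means of 28.8 ± 17.8 (SD, n = 5), 5.59 ± 1.93, 1.31 ± 0.892, and 0.123 ± 0.164 CPM (SD, n = 4 each).

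*Six3*, whose homeodomain protein shapes the anterior forebrain, had the same order. Its levels were 29.7, 25.9, 43.3, 14.8, and 30.5 CPM in the dLG, 12.7, 10.7, 13.8, and 6.9 CPM in the VPM, 0.626, 1.14, 1.81, and 1.99 CPM in the MGv, and 0, 0.0984, 0.198, and 0.29 CPM in the cortex. The groups of *Six3* did not overlap either. Every thalamic library was above every cortical one, as for 1.67% of 17856 genes. Between nuclei, the dLG stood above the rest and the MGv below, as for 0.427% and 0.404% of 17319 genes. The log2 fold change (log2FC, edgeR) of thalamus over cortex was 6.38 (SE 1.42) for *Six3os1*, or 7.90 without cortex a, and 6.84 (SE 1.32) for *Six3*, or 6.21 without cortex a and 7.53 without cortex d. Between nuclei, the log2FC of the dLG over the other two nuclei was 3.42 (SE 0.39) for *Six3os1* and 2.89 (SE 0.28) for *Six3*, and that of the MGv was -3.26 (SE 0.50) and -3.65 (SE 0.37).

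The log2FC of the VPM over the mean of dLG and MGv was -0.17 (SE 0.43) for *Six3os1* and 0.76 (SE 0.29) for *Six3*, and the difference between them was not tested. In counts, *Six3os1* had 0.938 ± 0.258 of the *Six3* counts in the dLG (SD, n = 5) and 0.525 ± 0.184 in the VPM (SD, n = 4), with ranges of 0.708 to 1.33 and 0.362 to 0.771 that overlapped. In the MGv, with 13 to 44 counts of *Six3* per library, the ratio ranged from 0.227 to 4.08. Per kb of exon, *Six3* was 2.45-fold more abundant than *Six3os1* over the thalamic libraries.

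*Otx2os1* was absent from the counts of the cortex and present in all thalamic libraries. Every cortical library had 0 counts, against 4.17, 3.01, 7.37, 3.09, and 2.88 CPM in the dLG, 1.48, 3.63, 0.801, and 1.73 CPM in the VPM, and 3.18, 3.58, 5.42, and 4.03 CPM in the MGv. With the floor of 3 counts per library in the cortex, the thalamus was at least 23.0-fold higher. Among nuclei, the VPM was lowest with 1.91 ± 1.21 CPM (SD, n = 4), but its library VPM b, at 3.63 CPM, stood within the range of the dLG and the MGv. The dLG with 4.10 ± 1.9 CPM (SD, n = 5) and the MGv with 4.05 ± 0.976 CPM (SD, n = 4) did not differ beyond their spread. The log2FC of the VPM over the other nuclei was -1.12 (SE 0.42), and -1.63 without VPM b.

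*Otx2*, a homeobox gene of the forebrain and midbrain, had the same cut between the regions at a higher level. One count was found in the cortex, in cortex d, and the thalamus was at least 437-fold higher. Levels were 65.4, 72.8, 104, 76.9, and 63.9 CPM in the dLG, 35.6, 56.9, 43.1, and 36.6 CPM in the VPM, and 71.1, 69.9, 83.7, and 64.9 CPM in the MGv, so every VPM library was below every library of the other nuclei, as for 2.62% of 17319 genes. The log2FC of the VPM was -0.82 (SE 0.16). *Otx2os1* counts were 0.0522 to 0.0557 of those of *Otx2* in the group means of the dLG and the MGv, and 0.0428 ± 0.0187 in the VPM (SD, n = 4). Per kb of exon, *Otx2* was 11.9-fold more abundant over the thalamic libraries.

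*Dlx6os1* had the opposite pattern, with 2.57, 5.46, 6.83, and 8.07 CPM in the cortex. In 12 of the 13 thalamic libraries, there were no counts, and VPM b had 3 counts, or 0.167 CPM. The cortex was at least 34.2-fold higher against the floor of 3 counts per library. *Dlx6*, the coding gene inside its span, was far scarcer, with 0.367, 0.344, 0.347, and 0.435 CPM in the cortex and at most 1 count in any thalamic library. In the cortex, *Dlx6os1* had 535 counts and *Dlx6* 40, and per kb of exon *Dlx6os1* was 6.14-fold more abundant.

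*Dlx5*, the homeobox gene on the other side of the enhancer, had 0.562, 2.95, 4.56, and 4.15 CPM in the cortex, with the lowest value in cortex a for *Dlx5* and for *Dlx6os1*. Its level was 0 in 10 thalamic libraries, 0.574 CPM in dLG b, 1.99 CPM in dLG c, and 0.394 CPM in VPM d. Hence, cortex and thalamus overlapped for *Dlx5*, and its log2FC was -3.70 (SE 1.14), or -5.13 without dLG c. The 6 inhibitory neuron markers, whose lineage expresses *Dlx* genes, summed to 27.2 to 66.8 CPM over the cortical and 25.5 to 59.2 CPM over the thalamic libraries. Their sum was highest in cortex b, where *Dlx6os1* was 5.46 CPM, and was 33.6 CPM in cortex d, where *Dlx6os1* was highest. The members went both ways under this sum. Cortical and thalamic means were 17.9 and 25.5 CPM for *Gad1* and 0.566 and 1.29 CPM for *Pvalb*. They were 10.1 and 3.59 CPM for *Npy*, 6.52 and 1.39 CPM for *Sst*, 5.04 and 3.11 CPM for *Gad2*, and 0.745 and 0.667 CPM for *Slc32a1*. None of the 6 passed an adjusted p under 0.1 between the regions in edgeR, and their part in the *Dlx6os1* level was not tested further.

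*Emx2os* was higher in the cortex and still present in every thalamic library. The cortex had 7.65, 5.36, 6.64, and 5.55 CPM, the dLG 1.31, 1.00, 5.39, 2.44, and 1.06 CPM, the VPM 1.39, 2.23, 1.95, and 0.789 CPM, and the MGv 1.40, 1.30, 1.09, and 1.31 CPM. Only dLG c reached into the cortical range, and the 3 nuclei did not differ beyond their spread. *Emx2*, a homeobox gene of the dorsal telencephalon, had 41.7, 29.3, 29.7, and 23.2 CPM in the cortex and 3.89 to 12.3 CPM across the nuclei, with 7.42 CPM in dLG c. Every thalamic library of *Emx2* was below every cortical one, as for 3.1% of 17856 genes. The log2FC was -1.85 (SE 0.37) for *Emx2os*, or -2.13 without dLG c, and -1.95 (SE 0.25) for *Emx2*. *Emx2os* had 0.207 ± 0.0287 of the *Emx2* counts in the cortex (SD, n = 4) and 0.240 ± 0.176 in the thalamus (SD, n = 13), and 0.726 of them in dLG c.

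*Sox2ot* was even across the groups and, per kb of exon, the most abundant of the 6 in the cortex, at 2.7 CPM per kb. Its mean was 31.3 ± 3.62 CPM in the cortex, and the dLG, VPM, and MGv reached 38.4 ± 10.9, 32.7 ± 6.66, and 37.5 ± 8.76 CPM (SD, n = 5 for the dLG and 4 for the others). The thalamic libraries lay between 24.8 CPM in MGv d and 53.9 CPM in dLG c, the cortical libraries between 27.6 and 35.3 CPM, and all groups overlapped. The log2FC of thalamus over cortex was 0.22 (SE 0.18). *Sox2*, which keeps neural progenitors and is also used by astrocytes, had dLG levels of 370, 464, 476, 393, and 485 CPM, VPM levels of 295, 306, 312, and 249 CPM, MGv levels of 377, 593, 474, and 448 CPM, and cortical levels of 349, 309, 332, and 262 CPM. Every VPM library of *Sox2* was below every dLG and MGv library, as for 2.62% of 17319 genes. The log2FC of the VPM over the other nuclei was -0.68 (SE 0.13) for *Sox2* and -0.25 (SE 0.21) for *Sox2ot*. Per kb of exon, *Sox2* was 56.2-fold more abundant than *Sox2ot* in the cortex and 62.6-fold in the thalamus.

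*D130058E05Rik* was scarce, with 0 to 72 counts per library. The cortex had 0.13, 0.197, 0.099, and 0.483 CPM, the dLG 3.23, 0.478, 0, 1.74, and 2.47 CPM, the VPM 0.669, 1.62, 0.901, and 0.986 CPM, and the MGv 2.17, 0.83, 2.00, and 3.26 CPM. The VPM and MGv libraries were above all cortical ones, the dLG overlapped with the cortex through dLG b and c, and the nuclei overlapped with each other. The log2FC of thalamus over cortex was 2.78 (SE 0.85), or 3.46 without cortex d, and that of the MGv over the other nuclei 0.69 (SE 0.74).

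*Gbx2*, a homeobox gene needed for the thalamus to form, was concentrated in the MGv, with 18.2, 7.31, 11.1, and 30.1 CPM. The dLG had 2.72, 0.43, 0, 1.79, and 0.404 CPM, the VPM 1.15, 0.726, 0.651, and 1.63 CPM, and the cortex 0.281, 0, 0, and 0 CPM. Every MGv library was above every other thalamic library, as for 0.664% of genes, and above every cortical one, with a log2FC over the other nuclei of 3.99 (SE 0.63). *D130058E05Rik* did not follow this step. Its counts were 0.130 ± 0.0337 of those of *Gbx2* in the MGv, 1.20 ± 0.781 in the VPM (SD, n = 4 each), and 2.35 ± 2.52 in the dLG (SD, n = 4, without dLG c, where both genes had 0 counts). Per kb of exon, *Gbx2* was 11.4-fold more abundant than *D130058E05Rik* in the MGv and 0.956-fold as abundant in the dLG. Both lengths include the shared bases, without which they are 1231 bp for *Gbx2* and 2111 bp for *D130058E05Rik*. Which of the 2 was more abundant in the dLG thus depends on how shared reads were assigned. Since 946 bp are exonic in both genes, the part of the *Gbx2* signal in the dLG and the VPM that came from *D130058E05Rik*, and the reverse, cannot be told apart.

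**Figure D2:**
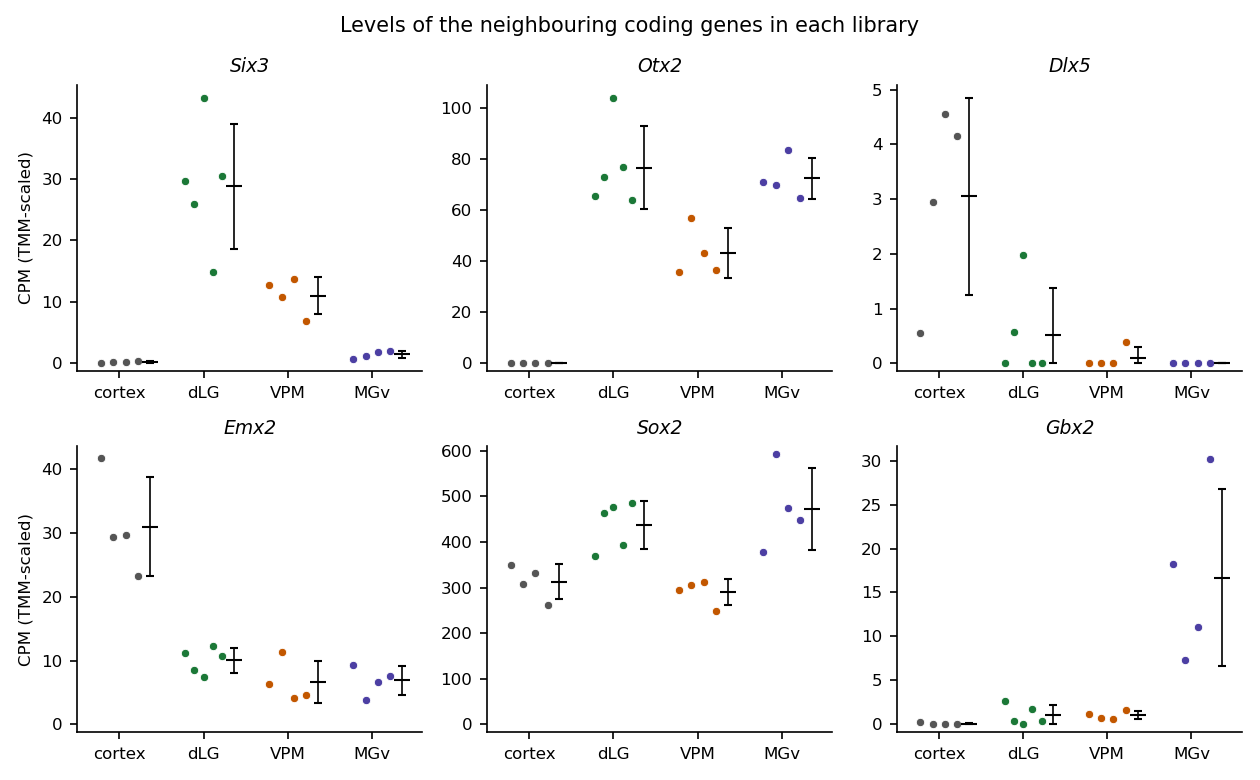
Level of each coding neighbor (vertical axis, TMM-scaled CPM from 0, one scale per panel) in every library, drawn as in the plot of the noncoding RNAs, with *Dlx5* shown for *Dlx6os1*. *Otx2* reached 104 CPM in the dLG and at most 0.0483 CPM in the cortex, and *Gbx2* stood apart in the MGv, at 7.31 to 30.1 CPM.

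Over the whole table, 11.4% of 17856 genes passed an adjusted p under 0.1 between thalamus and cortex. For 2 of the 6 RNAs, *Six3os1* and *Otx2os1*, every thalamic library was above every cortical one, as for 1.67% of genes, and for *Dlx6os1* every thalamic library was below, as for 3.1% of genes. Between nuclei, *Six3os1* alone of the 6 had a nucleus whose libraries did not overlap the rest, the dLG above (0.427% of 17319 genes) and the MGv below (0.404%). With the members chosen on these levels, these shares are background and no result. In the next coding genes outward on both sides of the 6 pairs, which lie 16929 to 1071486 bp away, log2FC of thalamus over cortex were between -0.50 for *Asb18* and 0.76 (SE 0.27) for *Rab11fip2*, which recycles endosomes. *Six2*, the gene beyond *Six3*, had means of at most 0.0928 CPM in any group, while *Camkmt*, on the other side of the pair, averaged 18.4 CPM over the cortical and 22.6 CPM over the thalamic libraries.

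**Figure D3:**
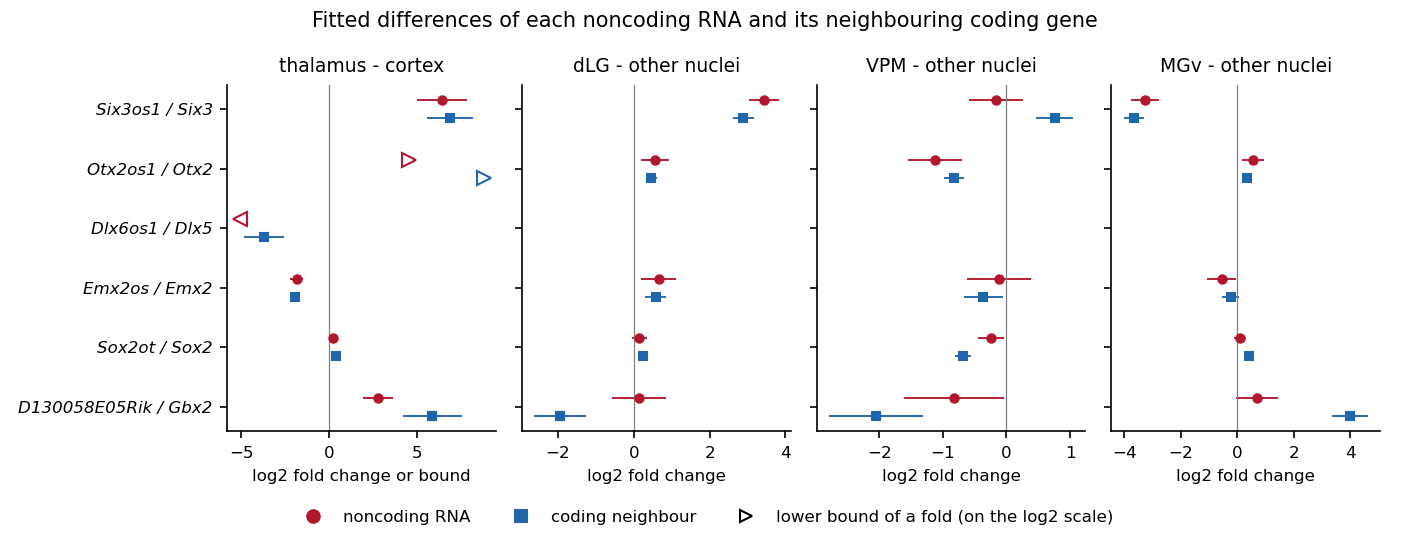
Log2FC (horizontal axis, points with bars of 1 SE, edgeR) of each noncoding RNA (red) and its coding neighbor (blue) for thalamus over cortex and for each nucleus over the other nuclei, with a scale of its own in each panel. Open triangles are lower bounds of a fold against a group at the floor, on the log2 scale. *Six3os1* and *Six3* lay close together in the dLG, at 3.42 and 2.89, and *D130058E05Rik* and *Gbx2* far apart in the MGv, at 0.69 and 3.99.

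Likeness over the 17 libraries was ranked as the Pearson correlation of log2(CPM + 0.5) with all genes tested that do not overlap the RNA. The libraries fall into groups, so the ranking is a description of shared group patterns. *Six3os1* was most like *Zic4* (r = 0.958), *Wnt3* (r = 0.933), and *Zic1* (r = 0.931), a Wnt ligand gene and a pair of zinc finger genes, and *Six3*, left out of these names because its span overlaps the RNA, stood at place 2 over all genes (r = 0.947). *Otx2os1* was most like *Foxb1*, a forkhead factor of the diencephalon (r = 0.962), *Pth1r*, the parathyroid hormone receptor (r = 0.941), and *Adgra1*, an adhesion receptor (r = 0.939), and *Otx2*, which also overlaps it, stood at place 2 (r = 0.944). *Dlx6os1* was most like *Mettl11b* (r = 0.990), *Fezf2*, which specifies deep-layer cortical neurons, and *Gm29260*, and *Dlx5* stood at place 201 (r = 0.842). *Dlx6*, under the filter on low counts and so unranked, had r = 0.981.

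The genes most like *Emx2os* were *Nim1k* (r = 0.919), *Tbr1*, a T-box factor of cortical neurons (r = 0.893), and *Sema3a*, a guidance cue (r = 0.883), with *Emx2* at place 140 (r = 0.783). *Sox2ot* was most like *Gm43362* (r = 0.881), *Styx* (r = 0.865), and *Gm17110* (r = 0.857), and *Sox2* stood at place 2402 of 17855 genes (r = 0.40). *D130058E05Rik* was most like *Fcer1g*, the Fc receptor gamma chain of microglia (r = 0.861), *Nfatc2* (r = 0.818), and *Gm15612* (r = 0.811), and *Gbx2* stood at place 64 (r = 0.720). The places of the neighbors moved without the cortex. Over the thalamic libraries, *Six3* stood at place 9, *Otx2* at 21, *Gbx2* at 867, *Sox2* at 3578, *Emx2* at 4810, and *Dlx5* at 12368 of 17854 genes. *Dlx6os1* had counts there only in VPM b. The summed level of 5 microglial markers was 84.1, 9.66, 23.5, 54.7, and 41.8 CPM in dLG a to e, where *D130058E05Rik* had 3.23, 0.478, 0, 1.74, and 2.47 CPM. In MGv a to d, the sum was 49.8, 10.3, 33.7, and 38.7 CPM. In the MGv, MGv b was lowest in both, but MGv d was highest in *D130058E05Rik* and MGv a in these markers. In the dLG, dLG a was highest in both, but dLG c was lowest in *D130058E05Rik* and dLG b in these markers. The sum was 10.4 to 18.2 CPM in cortical and 6.12 to 10.1 CPM in VPM libraries, where *D130058E05Rik* averaged 0.227 and 1.04 CPM. The part of these markers' cells in the *D130058E05Rik* level was not tested.

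Whether an RNA and its neighbor moved together beyond the differences between nuclei was tested in the 13 thalamic libraries. Both levels, as log2(CPM + 0.5), were centered on the mean of their nucleus, and an exact two-sided permutation test ran over all 69120 arrangements of libraries within nuclei, adjusted over the 5 pairs with enough counts. No pair passed an adjusted p of 0.05. *Otx2os1* and *Otx2* had r = 0.713 (exact permutation p = 0.0340, adjusted p = 0.0850) and Spearman rho = 0.401 (exact permutation p = 0.251). *D130058E05Rik* and *Gbx2* had r = 0.744 (exact permutation p = 0.0326, adjusted p = 0.0850) and rho = 0.632 (exact permutation p = 0.0748).

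Single libraries shifted both relations. With 1 library left out at a time, r stayed between 0.539 and 0.866 for *Otx2os1* and between 0.606 and 0.883 for *D130058E05Rik*. Without VPM b, r of *Otx2os1* and *Otx2* was 0.539 (exact permutation p = 0.163), and without dLG c it was 0.549 (exact permutation p = 0.272). For *D130058E05Rik* and *Gbx2*, r was 0.606 without dLG c (exact permutation p = 0.107) and 0.883 without dLG e (exact permutation p = 0.00745, adjusted p = 0.0373). Without the 2 libraries farthest from the median of the neighbor, it was 0.80 for *Otx2os1* (exact permutation p = 0.0241) and 0.714 for *D130058E05Rik* (exact permutation p = 0.116). Within the 8 thalamic libraries of the largest series of library numbers, r was -0.0962 for *Otx2os1* and *Otx2* (exact permutation p = 0.833) and 0.915 for *D130058E05Rik* and *Gbx2* (exact permutation p = 0.0208), a pair with shared exons. These 8 were every MGv library, dLG a and b, and VPM c and d, while dLG c was alone in its series. The 8 allow far fewer arrangements than the 69120 of all thalamic libraries, and their p-values were not adjusted over the pairs.

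The other pairs had weaker relations. *Six3os1* and *Six3* had r = 0.318 and rho = 0.275 (exact permutation p = 0.367 and 0.422). The dLG libraries lay along a line (r = 0.960) and the MGv libraries, with 10 to 53 counts of *Six3os1*, on an opposite one (r = -0.849), and without MGv a and b, r was 0.768 (exact permutation p = 0.0274). *Emx2os* and *Emx2* had r = 0.0276 and rho = 0.214 (exact permutation p = 0.915 and 0.484), and r = 0.142 without MGv b and VPM c. *Sox2ot* and *Sox2* had r = 0.152 and rho = 0.0769 (exact permutation p = 0.658 and 0.832), and r = 0.0474 without MGv b and VPM d. Within the largest series of library numbers, r was -0.397, 0.0426, and -0.252 for these 3 pairs. Against the mean level of the 10 neuronal markers, the 5 RNAs had r between -0.370 for *Sox2ot* and -0.0218 for *D130058E05Rik*, and their neighbors between -0.570 for *Sox2* and 0.389 for *Gbx2*, with adjusted p of 0.511 to 0.935 over 10 exact permutation tests.

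**Figure D4:**
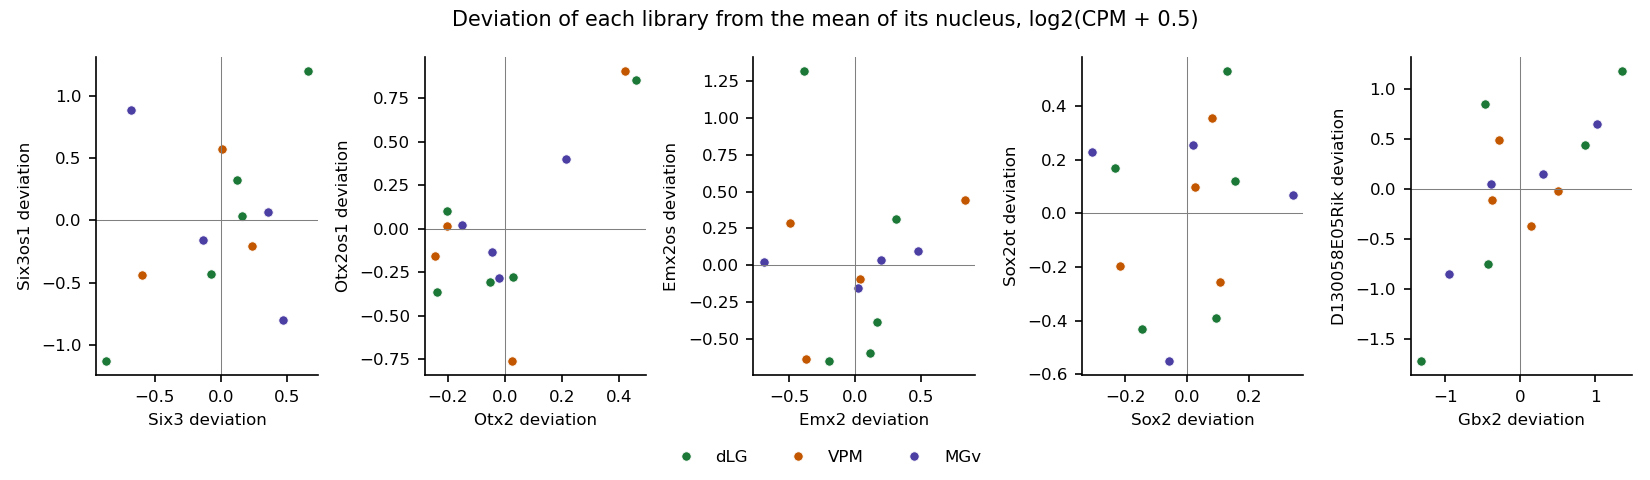
Deviation of each thalamic library from the mean of its nucleus on the log2(CPM + 0.5) scale, coding neighbor on the horizontal and noncoding RNA on the vertical axis, with points colored by nucleus. The points of *Otx2os1* and *Otx2* (r = 0.713) and of *D130058E05Rik* and *Gbx2* (r = 0.744) lie nearer to a rising line than those of *Emx2os* and *Emx2* (r = 0.0276), and no pair passed an adjusted p of 0.05.

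Other noncoding RNAs beside patterning factor genes were then taken by position from the annotation, to see whether such RNAs and their factor genes differ between regions together. The 130 patterning factor genes used were listed with earlier results of these data known. They had 136 other long noncoding RNA genes within 5 kb, of which 86 had a row and 53 passed the filter on low counts. Of the 53, 13 passed an adjusted p under 0.1 between thalamus and cortex, with 8 toward the thalamus (5.45% of all genes) and 5 toward the cortex (5.93% of all genes). In all, 24.5% passed, against 11.4% of all genes and 5.23% of the 2620 long noncoding RNA genes tested. The median log2FC of the 53 was 0.36, against 0.02 over all genes, and the median size of the log2FC was 0.80, against 0.28. For 12 of the 13, the factor gene also passed the test in the same direction, for none in the opposite direction, and for 1 it did not pass. Some of these RNAs share exons with the factor gene, and without the strand such reads could not be told apart. Their part in this count was not tested. The count covers only RNAs that passed, and RNAs that did not pass also lay beside factor genes that did. Among these, *Dlx1as* had a log2FC of -0.19 (SE 0.48) beside *Dlx1* at -7.15 (SE 0.66). *Sox6os* had -0.72 (SE 0.63) beside *Sox6* at 0.82 (SE 0.20). How many such pairs there were was not counted. Of the 101 factor genes tested, 32 passed toward the thalamus and 19 toward the cortex. With the list chosen this way, the shares of the RNAs beside these genes are a description and no test of such RNAs as a class.

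In the thalamus, *B230323A14Rik* (chr9:69758740-69830845), which shares 14.3% of its exonic length with *Foxb1*, had 8.30 ± 2.65 CPM (SD, n = 13). Every cortical library had 0 counts of it, so it was at least 55.9-fold higher (edgeR, adjusted p = 1.03e-08), and *Foxb1* was at least 315-fold higher. *B130024G19Rik* shares 6.77% of its exonic length with *Nr2f2*, a nuclear receptor gene. This RNA was at least 43.9-fold higher (edgeR, adjusted p = 4.02e-07), with a log2FC of 5.91 (SE 0.46) for *Nr2f2*. *Gm20554* beside *Irx2*, an Iroquois homeobox gene, went from 0.0600 ± 0.0934 CPM in cortical to 5.55 ± 1.78 CPM in thalamic libraries, with a log2FC of 6.46 (SE 0.66, edgeR adjusted p = 1.33e-06) and of 6.39 (SE 0.34) for *Irx2*. *Irx3os* across *Irx3* was at least 3.30-fold higher (edgeR, adjusted p = 0.0141), and *Gm37477*, 52.9% of whose exons lie in exons of *Zic4*, at least 3.81-fold higher (edgeR, adjusted p = 0.0132). Thalamic levels of *Irx3os* and *Gm37477* ranged from 0 to 2.07 and from 0 to 1.18 CPM.

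In the cortex, *G630016G05Rik* and *2700033N17Rik* both lie beside *Meis2*, a homeobox gene with a log2FC of -2.31 (SE 0.23), and had log2FC of -4.95 (SE 0.66) and -3.16 (SE 0.81), with edgeR adjusted p of 4.12e-05 and 0.0176. *Pantr1* beside *Pou3f3* was the one RNA whose factor gene did not pass. Its mean was 181 ± 45.7 CPM over the cortical and 86.3 ± 24.0 CPM over the thalamic libraries, which gave -1.07 on the log2 scale (SE 0.19, edgeR adjusted p = 0.000902), while *Pou3f3* had -0.18 (SE 0.26, edgeR adjusted p = 0.749). The difference between the log2FC of *Pantr1* and *Pou3f3* itself was not tested.

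**Figure D5:**
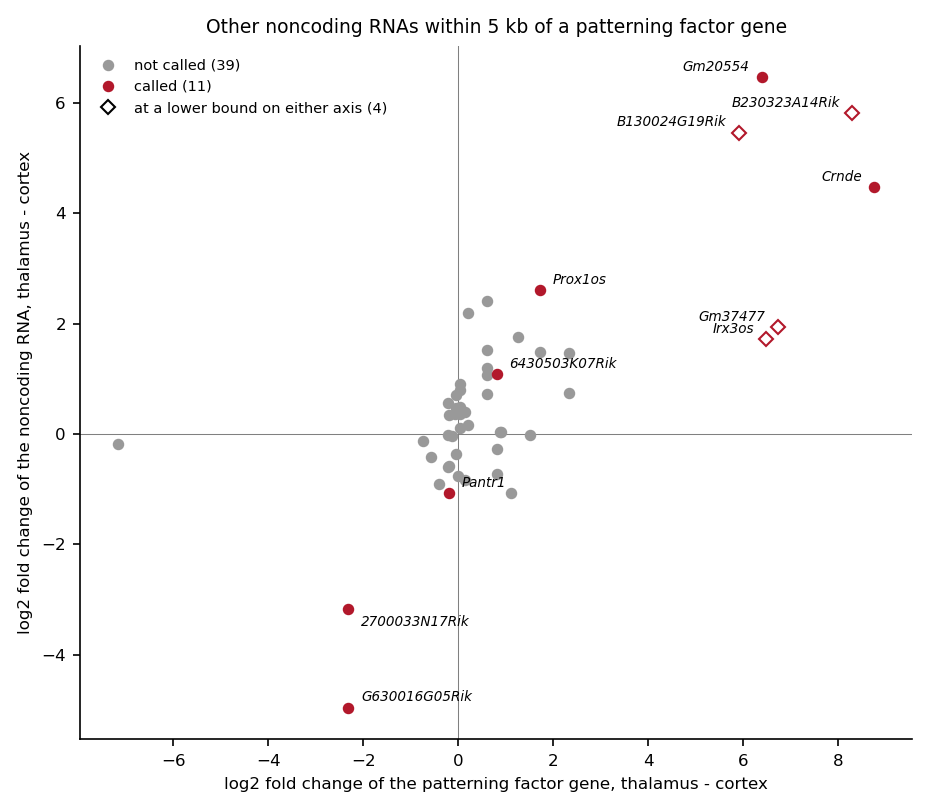
Log2FC of thalamus over cortex of 50 other noncoding RNAs within 5 kb of a patterning factor gene (vertical axis) and of that gene (horizontal axis), for the pairs shown here. Red points are 11 RNAs with an adjusted p under 0.1, and open diamonds stand at the lower bound of a fold on either axis. The named RNAs lie in the upper right and lower left, at up to 6.46 for *Gm20554* and down to -4.95 for *G630016G05Rik*. *Pantr1* lies at -1.07 beside a factor gene at -0.18.

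Between nuclei, 45 of these RNAs were tested, and 7 passed in at least 1 of the 3 contrasts, a share of 15.6% against 17.6% of all genes. All 7 passed for the VPM, 6 lower (9.78% of all genes) and 1 higher (7.07%) than the other nuclei, and 2 were also higher in the MGv (1.57%). *Gm20421*, which shares 64.4% of its exonic length with *Hes5*, a Notch target, had 4.98 ± 1.76 CPM in the dLG, 1.67 ± 0.987 CPM in the VPM, and 9.53 ± 4.64 CPM in the MGv, with a log2FC for the VPM of -2.07 (SE 0.45, edgeR adjusted p = 0.0148). *Crnde* beside *Irx5* was also higher in the MGv, with a log2FC of 1.16 (SE 0.17, edgeR adjusted p = 0.00246), and *Irx5* had 1.10 there (edgeR adjusted p = 0.00189). *Sox1ot*, across *Sox1*, had a log2FC for the VPM of -1.24 (SE 0.29, edgeR adjusted p = 0.0195), and *Sox1* -1.34 (edgeR adjusted p = 0.0283). The other 4 were *Gm26645* beside *Gli3*, *Prox1os* and *Gm28172* beside *Prox1*, and *2810468N07Rik* beside *Sox8*. These 7 RNAs were named after their values were seen.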

How the data were processed

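RNA was sequenced from 17 libraries of FACS-sorted *Gfap::GFP* astrocytes, as 50-base single reads from SMARTer Ultra Low and NEBNext Ultra DNA kits. The deposited values are raw counts per gene, made by the authors with STAR 2.7.0d and featureCounts 1.6.4 on GRCm38 with Ensembl 95 annotation. Positions came from GENCODE M21 (Ensembl 96), which held 26548 of the 26556 identifiers. Counts were scaled by TMM and tested with edgeR 4.0.16 (R 4.3.3, quasi-likelihood, Benjamini-Hochberg, adjusted p under 0.1) over genes passing filterByExpr, once for thalamus against cortex and once for each nucleus against the mean of the other nuclei. Correlations used log2(CPM + 0.5) and exact permutations, with an adjusted p of 0.05 as the threshold. Scripts were tested on simulated data. The RNAs, gene lists, markers, and tests were chosen with earlier results of these data known. Genes named were the RNAs, their coding neighbors, the next coding genes, the 3 genes most alike, and up to 5 other noncoding RNAs per direction by the size of the log2FC. Some of the latter are not reported here. Alternatives were DESeq2 1.42.0, other filters, scalings, and pseudocounts, a block for replicate letters, the series of library numbers as a covariate, and leaving out each library. Counting intervals and floors cover counting error only.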

Additional observations from a re-analysis of the deposited data

Results flagged for a closer look

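In 4 of 43 groups examined, 1 library stood apart from the others of its group by Dixon's test, which chance alone does in about 1 in 20 groups of normally spread values. Where all other libraries were at 0, as for *Dlx5* in VPM d and *Gbx2* in cortex a, the gap is the whole range whatever the value. That rate does not hold for such groups. *Otx2os1* was 7.37 CPM in dLG c, against 2.88 to 4.17 CPM in the other dLG libraries. *Dlx5* was 1.99 CPM in dLG c, against 0 to 0.574 CPM in the other dLG libraries, and 0.394 CPM in VPM d, against 0 in the other VPM libraries. *Gbx2* was 0.281 CPM in cortex a, the deepest library, and 0 in the other cortical libraries.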

How the results depend on the processing

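No value that had passed its test reversed under the alternatives run. Among values with no test or past no threshold, 7 log2FC and 4 r of the RNAs and neighbors changed sign under at least 1 alternative, among them the VPM log2FC of *Six3os1* (-0.17, up to 0.11) and of *Emx2os* (-0.12, up to 0.19), the dLG log2FC of *D130058E05Rik* (0.13, down to -0.61), and the r of *Six3os1* and *Six3* (0.318, down to -0.397) and of *Emx2os* and *Emx2* (0.0276, down to -0.209). With DESeq2 in place of edgeR, 1704 genes passed toward the thalamus (974 with edgeR), 436 and 156 passed as higher and lower in the dLG (163 and 37), 614 and 355 in the MGv (272 and 131), and of the other noncoding RNAs 14 passed toward the thalamus (8) and 12 between nuclei (7). With a block for replicate letters, the counts were 97 and 19 in the dLG and 419 and 253 in the MGv, and the block moved no count of the other noncoding RNAs. No pairing by letter was seen in the deviations. Those of same-letter libraries had r of -0.173 to 0.266, over 0.1 in 6 of 24 pairs, and 4 of 16 libraries correlated best with their own letter. Such correlations cannot tell whether libraries shared a preparation. With the series of library numbers as a covariate, they were 83 and 21 in the dLG and 149 higher in the MGv. Where at least 10 counts were required in every library, 2 other noncoding RNAs passed toward the thalamus, 1 toward the cortex, and 4 between nuclei. This filter leaves out by construction any RNA near 0 counts in a region, such as *B230323A14Rik* and *B130024G19Rik*. Where only overlapping spans counted as beside, 1 passed toward the cortex.

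Leaving out 1 library at a time, the genes passing between regions were 523 (without cortex b) to 1196 (without VPM d) toward the thalamus and 616 (without cortex d) to 1224 (without dLG c) toward the cortex. In the dLG, 90 (without dLG b) to 383 (without dLG d) were higher and 19 (without VPM c) to 101 (without dLG d) lower. In the VPM, 379 to 1763 were higher and 618 to 2132 lower, fewest without VPM a and most without dLG d. In the MGv, 124 to 466 were higher and 64 to 237 lower, fewest without MGv c and most without dLG c. Of the other noncoding RNAs, 7 to 10 passed toward the thalamus, 4 to 6 toward the cortex, and 5 to 9 between nuclei. The r of *D130058E05Rik* and *Gbx2* was 0.606 without dLG c and 0.883 without dLG e, which alone took it past the threshold. RNAs with under 20 counts per library, as *D130058E05Rik* in the cortex, and ratios in the MGv are limited by depth. The causes of these shifts were not tested.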
